A study of Mus musculus with 2 samples.

Results

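Capillary and venous-type endothelial cells (ECs) were taken from both single-cell libraries as the ECs that carried no program of another endothelial class. Cells were kept with more than 2000 and fewer than 9000 detected genes and under 10% mitochondrial UMIs (unique molecular identifiers, which count RNA molecules). A kept cell was an EC when at least 4 of 8 endothelial genes (Pecam1, Cdh5, Tie1, Emcn, Egfl7, Plvap, Esam, Ptprb) were detected and the leukocyte gene Ptprc was not. The members were then chosen by what they lacked. They had no UMI of the lymphatic regulator Prox1, fewer than 3 of 6 endocardial genes (Npr3, Nfatc1, Hapln1, Gata4, Cgnl1, Tll1) and fewer than 3 of 7 arterial genes (Gja4, Gja5, Hey1, Dll4, Sox17, Cxcr4, Efnb2). Of 6272 cells in all, 892 were ECs and 198 were members, 45 in the control library and 153 in the mutant library.

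The cells came from mouse embryos at E13.5 and were sorted for eYFP from the upper body above the liver, a tissue labelled as pharyngeal arch. Control embryos were Isl1-Cre; R26R-eYFP, and mutant embryos carried the same Isl1-Cre and R26R-eYFP alleles plus R26R-Pik3ca H1047R, an activating form of the PI3K catalytic subunit. Both groups were of mixed C57BL/6J and Crl:CD1(ICR) background. The Isl1 promoter drives Cre in both, so the sorted cells descend from cells that once used that promoter, and the control carries Cre and the reporter too. Each genotype was 1 droplet library (10x Genomics, 5′ chemistry) of 3 pooled embryos, with 66935720 UMIs over 4505 barcodes in control and 73915525 UMIs over 5357 barcodes in mutant, so no difference between genotypes has a replicate check and no test is given; all intervals below are 95% intervals that cover counting error only.

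Capillaries and veins are the thin-walled exchange and return segments of the vascular tree. Venous ECs are known for the nuclear receptor Nr2f2, which represses the arterial program, and for the apelin receptor Aplnr, which marks veins and forming capillaries and binds the peptide Apln made by sprouting tip cells. Endothelial PI3K acts downstream of VEGF and angiopoietin receptors, and activating Pik3ca mutations occur in human venous, capillary and lymphatic malformations. HIF factors, which are stabilised at low oxygen and also respond to PI3K signalling, switch on glycolysis, glucose import and angiogenic peptides. They act through short promoter elements, often with the core ACGTG.

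Promoters of 5 HIF target and glycolytic genes that hold this core are shown here because the levels of these genes carry the main contrast described below. The sequences are RefSeq promoters of build GRCm38.p6, read 5′ to 3′ on the strand of the gene, and capitals mark every ACGTG or its reverse complement CACGT; where they overlap as CACGTG both are counted. Bnip3, a mitophagy receptor, lies on the minus strand (window chr7:138909569-138909653). The others lie on the plus strand: the lactate exporter Slc16a3 (chr11:120949013-120949066), the glucose transporter Slc2a1 (chr4:119108669-119108744), phosphoglycerate kinase Pgk1 (chrX:106186929-106187013) and lactate dehydrogenase Ldha (chr7:46845730-46845803).
Bnip3: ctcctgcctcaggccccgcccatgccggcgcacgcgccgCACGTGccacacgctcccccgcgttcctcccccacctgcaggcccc
Slc16a3: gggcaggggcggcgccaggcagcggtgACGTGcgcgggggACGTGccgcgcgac
Slc2a1: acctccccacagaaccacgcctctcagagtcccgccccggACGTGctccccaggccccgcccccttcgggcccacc
Pgk1: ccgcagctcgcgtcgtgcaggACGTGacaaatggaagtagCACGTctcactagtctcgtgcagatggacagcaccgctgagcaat
Ldha: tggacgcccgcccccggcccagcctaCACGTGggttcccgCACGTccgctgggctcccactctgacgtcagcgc
In the 250 bases before any listed start of a gene, either letter string stood in 16 of the 26 HIF target genes with a promoter entry (61.5%). It stood in 7 of 16 glycolytic genes (43.8%), against 4998 of all 27025 genes (18.5%). It stood in 0 of 4 capillary genes and 1 of 9 venous genes with an entry. A gene with several starts counted when at least 1 had a match, so genes with more starts had more chances. A match is a description of letters and not a binding site; Pfkm, a muscle phosphofructokinase with nearly equal levels in both libraries, held it as well, and Adm, with no UMI in any control member, did not.

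The member label was first checked against its 5 markers. Levels are given as CPM, here the UMIs of a gene per 1000000 UMIs summed over the cells of a group. The members held 743288 UMIs in control and 1865674 in mutant. Emcn (endomucin) and Plvap (a protein of capillary fenestrae) are part of the endothelial rule, so their presence is no finding: Emcn stood at 693 CPM in control and 947 CPM in mutant members, and Plvap at 662 and 436 CPM. Kdr, the main VEGF receptor, was outside the rule and stood at 484 and 548 CPM. Cells that were not endothelial had 4.09 and 3.48 CPM of Kdr, so this gene outside the rule was far higher in the members in both libraries.

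The 5 markers did not, however, set the members apart from other ECs, apart from Aplnr in the control. Other ECs of the control had 570 CPM of Emcn, 569 of Plvap, 639 of Kdr and 221 of Nr2f2, against 198 CPM of Nr2f2 in the members. In the mutant, other ECs had 939 CPM of Emcn, 498 of Plvap, 541 of Kdr and 343 of Nr2f2, against 294 of Nr2f2 in the members. Aplnr was at 622 CPM in control members and 253 CPM in the other control ECs, a log2 ratio of 1.30, but at 162 and 160 CPM in the mutant, a log2 ratio of 0.03.

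Nr2f2 was higher in members than in arterial-type cells, which had 75.5 CPM in control and 189 in mutant. Endocardial-type cells had more of it, 312 and 392 CPM, and cells that were not endothelial had 137 and 144 CPM, with a UMI in 63.7% and 60.6% of those cells. The arterial connexin Gja4 lay on the other side, with 9.42 and 15.5 CPM in members against 419 and 238 CPM in arterial-type cells, but it is a gene of the rule. The label therefore rests on the absence of arterial, endocardial and lymphatic genes more than on venous or capillary markers. Genes of mature venules and capillaries were close to 0 as well: Selp, the platelet selectin of venules, had 2 UMIs in control and 1 in mutant members, Ackr1 had 1 and 3, Lrg1 had 3 and 2, Car4 had 1 and 0, and Cd300lg had 6 and 5.

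**Figure D1:**
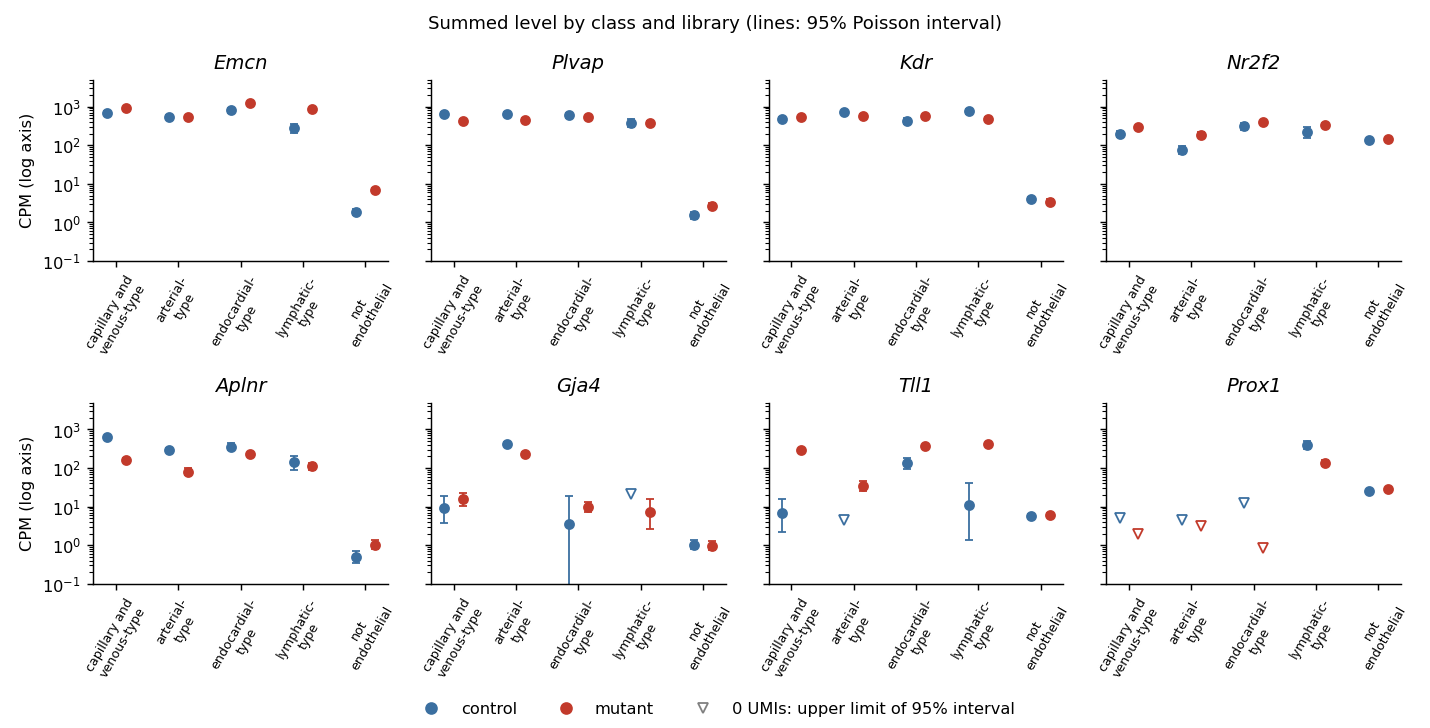
Summed level of 8 genes (log axis, CPM) in capillary and venous-type, arterial-type, endocardial-type, lymphatic-type and non-endothelial cells of the control (blue) and mutant (red) library, 1 library per point with a 95% Poisson interval and open triangles for the upper limit at 0 UMIs. Aplnr is highest in control members at 622 CPM, Nr2f2 is lowest in control arterial-type cells at 75.5 CPM, and Tll1, a gene of the rule, is at 6.73 CPM in control and 296 CPM in mutant members.

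Because the rule counts detected genes, the number of members depends on depth. Members had a median of 15525 UMIs per cell in control (from 3519 to 39368) and 9348 in mutant (from 3454 to 55318), and medians of 4797 and 3528 genes. ECs that met 2 or 3 of the other classes at once were deeper, with medians of 26567.5 and 25097.5 UMIs. At full depth members were 29.4% of control ECs (45 of 153; Clopper-Pearson interval 22.3 to 37.3%) and 20.7% of mutant ECs (153 of 739; 17.8 to 23.8%). Cells with at least 5000 UMIs were also thinned to 5000 UMIs before the rule was applied. The 61 control and 173 mutant cells under 5000 UMIs, 2 and 18 of them members, were left out. The shares were then 58.2% (82 of 141, 49.6 to 66.4%) and 58.5% (383 of 655, 54.6 to 62.3%). At equal depth the shares were nearly the same and their intervals overlapped. Of these cells, 42 of the 82 thinned control members and 267 of the 383 thinned mutant members had belonged to another class at full depth.

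Tll1, a secreted metalloprotease counted among the endocardial genes, also moved the share. Mutant ECs carried far more of it, and when it was not counted members were 32.0% of control ECs (49 cells; 24.7 to 40.0%) and 34.2% of mutant ECs (253 cells; 30.8 to 37.8%). Relative to all kept cells, members were 1.62% in control (1.18 to 2.16%) and 4.39% in mutant (3.73 to 5.12%), while all ECs were 5.50% and 21.2%. These shares describe sorted cells of 1 library each, and the part of sorting and dissociation in them was not tested.

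**Figure D2:**
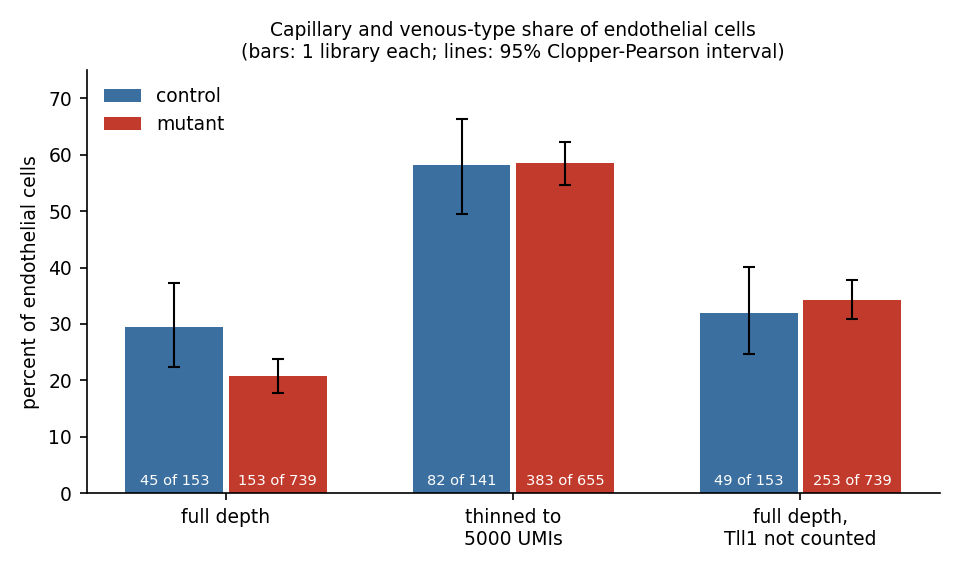
Percent of ECs that were capillary and venous-type in the control (blue) and mutant (red) library at full depth, after thinning to 5000 UMIs, and at full depth with Tll1 not counted; lines are 95% Clopper-Pearson intervals and the numbers in the bars are members of ECs. The bars of the 2 libraries differ at full depth (29.4% and 20.7%) and are nearly equal after thinning (58.2% and 58.5%).

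The members varied in how fully they met the rule. All 8 endothelial genes were detected in 27 of 45 control and 74 of 153 mutant members, and just 4 of 8, the lowest number admitted, in 3 and 13. Just outside, 15 control and 54 mutant cells had 3 of 8, with medians of 26641 and 20807.5 UMIs, so they were deeper than the members. Of the 7 arterial genes, none was detected in 10 control and 37 mutant members, 1 in 16 and 66, and 2 in 19 and 50. Of the 6 endocardial genes, none was detected in 11 control and 18 mutant members, 1 in 17 and 46, and 2 in 17 and 89. More of the mutant members thus sat at the edge of the endocardial limit, and 115 mutant ECs against 6 control ECs were just beyond it, with exactly 3 endocardial genes and otherwise as members. Those 115 cells had 461 CPM of Tll1 and 247 CPM of Aplnr.

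Within the mutant members, the 63 cells with a Tll1 UMI and the 90 without differed in other genes. Emcn was at 1379 CPM in the cells with Tll1 and 709 CPM in those without, and Nr2f2 at 420.4 and 225 CPM. Aplnr was at 194 and 145 CPM, and Gja4 at 1.5 and 23.3 CPM. As Tll1, Emcn and Gja4 are all genes of the rule, these values are a description of how it divides the members; Nr2f2 and Aplnr lie outside it. Tll1 was concentrated unevenly, from 0 in most mutant members to 104.6 UMIs per 10000 in the highest cell.

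Compared with all other ECs together, members differed mainly by lacking genes. Among 7462 genes with enough signal in both libraries, 3 (0.0402%) were over 2-fold higher in members in control and mutant alike and 32 (0.429%) were over 2-fold lower, 6 of them genes of the rule (Gja4, Gja5, Hey1, Nfatc1, Npr3, Prox1). As the cells were chosen on their expression, these numbers are a description. The 3 higher genes, named after their values were seen, were the hyaluronan scavenger receptor Stab2, the metallothionein Mt1, and Thsd7b. Stab2 was at 48.4 CPM in members and 14.5 CPM in other ECs of the control, and at 42.3 and 15.3 CPM in the mutant, log2 ratios of 1.74 (1.04 to 2.43) and 1.47 (1.08 to 1.85). Endocardial-type cells of the control were above the members at 76.3 CPM (log2 ratio of members to these cells -0.66, from -1.46 to 0.18), while those of the mutant were at 16.7 CPM. Stab2 came from 8 of 45 control and 20 of 153 mutant members, so it marked a minority of cells at about the same level in each genotype.

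Mt1, a metal-binding protein, was low in the control members at 12.1 CPM (9 UMIs) against 4.84 CPM in other ECs, and far higher in the mutant at 381 against 107 CPM. Thsd7b was at 160 CPM in control members against 78.5 CPM in other ECs, and at 51.5 against 20.1 CPM in the mutant. The margin over the pooled other ECs thus held in both libraries while the levels themselves were higher in the mutant for Mt1 and lower for Thsd7b. Mutant lymphatic-type cells exceeded the members for both genes, with 680 CPM of Mt1 and 71.0 CPM of Thsd7b.

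Among more abundant genes, those with the most even excess in members were led by Odc1, the first enzyme of polyamine synthesis, at 429 against 255 CPM in control and 806 against 583 CPM in mutant (log2 ratios 0.75 and 0.47). Ccnd1, the G1 cyclin, was also higher in members in each library, with log2 ratios of 0.67 and 0.31, but its own level in members was 444 CPM in control and 183 CPM in mutant. Adgrl2, Tcim, Rasal2, Kpna2 and the nucleoside transporter Slc29a1 were also named, with log2 ratios from 0.29 to 0.76. The excess was under 2-fold for these 7 genes in both libraries and holds for the pooled other ECs: Adgrl2 was higher in control endocardial-type cells (333 against 269 CPM) and Rasal2 in mutant arterial-type cells (196 against 167 CPM).

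The genes lower in members included matrix and vessel wall genes. Elastin (Eln) was at 8.07 CPM in control members against 546 CPM in other control ECs and at 42.9 against 123 CPM in the mutant, log2 ratios of -6.08 and -1.52. Arterial-type cells had 929.6 CPM of Eln in control and 185 CPM in mutant. Fibrillin (Fbn1) had log2 ratios of -1.50 and -1.46, fibronectin (Fn1) -2.38 and -0.76, the imprinted transcript H19 -1.12 and -0.93, and Col3a1, Sat1, Sox7 and Ctsl were the other genes named by the same rule. As above, the margin is over the pooled other ECs: in the mutant Eln was lower in endocardial-type (30.0 CPM) and lymphatic-type cells (19.6 CPM) than in members, in the control H19 was lower in endocardial-type cells (191 against 336 CPM), and in the mutant Col3a1 was lower in lymphatic-type cells (26.9 against 62.7 CPM). Of 10 arterial genes outside the rule with enough signal, 4 were over 2-fold lower in members in both libraries, against 0.429% of all genes. The 10 genes had medians of -1.78 in control and -0.76 in mutant, against -0.03 and -0.01 for all genes. Members were chosen for few arterial genes, and the other ECs include the cells chosen for having them. The lower values of these 10 genes are thus largely set by the rule and are no separate finding.

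Mutant and control members were then compared gene by gene. Of 7418 genes with a mean of at least 20 CPM over the 2 libraries, 385 (5.19%) were more than 2-fold higher in mutant members and 348 (4.69%) more than 2-fold lower, and the median log2 ratio of all genes was -0.05. Scaling by edgeR's TMM factors gave 459 and 285 genes. Pik3ca itself had 24 UMIs in control members (32.3 CPM) and 98 in mutant members (52.5 CPM), giving a log2 ratio of 0.70 (0.05 to 1.41). The ratio was -0.03 in arterial-type, -0.70 in endocardial-type, -0.83 in lymphatic-type and 0.02 in non-endothelial cells. In the pooled other ECs it was -0.23 (-0.50 to 0.05), so the higher level was not seen across the mutant library. Pik3ca UMIs do not separate the R26R transgene from the endogenous gene.

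The venous and capillary genes did not move as one group. Aplnr (chr2:85136225-85139923 in GENCODE for GRCm38) had 462 UMIs in control members (622 CPM; 566 to 681) and 303 in mutant members (162 CPM; 145 to 182), a log2 ratio of -1.94 (-2.15 to -1.72). It was detected in 40 of 45 control and 91 of 153 mutant members at full depth, and after thinning to 5000 UMIs in 83.7% (69.3 to 93.2%) and 43.0% (34.5 to 51.8%). Here and below, detection after thinning covers the 43 control and 135 mutant full-depth members with at least 5000 UMIs. The 82 and 383 cells that met the rule after thinning are a different set, used for shares and for list medians and ratios in thinned cells. Non-endothelial cells thinned in the same way had it in 0.23% and 0.65%, so the mutant level was lower but well above that background. Per cell, the median was 6.79 UMIs per 10000 in control and 0.94 in mutant, and the ranges overlapped, from 0 to 16.3 and from 0 to 10.7.

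Nr2f2 lay on the other side of Aplnr. Its 147 control UMIs (198 CPM) and 549 mutant UMIs (294 CPM) gave a log2 ratio of 0.57 (0.31 to 0.85), and was detected after thinning in 53.5% (37.7 to 68.8%) and 65.9% (57.3 to 73.9%) of cells. Non-endothelial cells had it in 37.3% and 37.8%. The thinned intervals of the 2 libraries overlapped for Nr2f2 and were separate for Aplnr. Of the remaining markers, Emcn had a log2 ratio of 0.45, Plvap of -0.60 (-0.77 to -0.44) and Kdr of 0.18 (0.00 to 0.36), and the sign for Kdr turned in 2 of 14 alternative settings.

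Of 12 venous genes, 8 passed 20 CPM, with a median of 0.43. Of these, 1 was over 2-fold higher and 1 (Aplnr) over 2-fold lower, against 5.19% and 4.69% of all genes. Von Willebrand factor (Vwf), a clotting protein, was the higher one, at 33.6 CPM in control and 111 CPM in mutant members (log2 1.73). Icam1, a leukocyte adhesion receptor, was at 82.1 and 159 CPM (0.96) and the VEGF receptor Flt4 at 47.1 and 88.4 CPM (0.91). The ephrin receptor Ephb4 (152 and 157 CPM) and the semaphorin and VEGF co-receptor Nrp2 (233 and 283 CPM) were nearly level, and the prostaglandin transporter Slco2a1 was at 36.3 and 19.8 CPM.

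Of 10 capillary genes 8 passed the same level; 5 were over 2-fold lower in mutant members and 1 higher, with a median of -1.59. These shares are well above the 4.69% of all genes that were lower. Apart from Aplnr, which both lists hold, the lower genes serve fatty acid handling or mark capillary ECs. Rgcc, a cell cycle regulator (chr14:79288756-79301645), had 185 UMIs in control members (249 CPM) and 78 in mutant members (41.8 CPM; log2 -2.57). The fatty acid translocase Cd36 (chr5:17781690-17888801) had 96 (129 CPM) and 51 UMIs (27.3 CPM; -2.24).

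Gpihbp1, which anchors lipoprotein lipase on capillaries, was at 92.8 and 24.7 CPM (-1.91), and the fatty acid binding protein Fabp4 at 486 and 202 CPM (-1.27). Fabp5, a related binding protein, ran the opposite way at 350 and 951 CPM (1.44). After thinning, Rgcc was detected in 46.5% of control and 11.9% of mutant members, and the latter was close to the 8.85% of non-endothelial mutant cells. Cd36 was detected in 30.2% and 10.4%, against 2.29% and 1.99% of non-endothelial cells, and Gpihbp1 in 32.6% and 11.9%, against 0.04% and 0%. Of the cells with Cd36, all 13 thinned control members also had Aplnr, and in the mutant 6 of the 14 cells with Cd36 did, against 36 of 43 and 58 of 135 members with Aplnr in all.

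The same capillary list had median log2 ratios of -1.10 in arterial-type, 0.04 in endocardial-type and -0.47 in lymphatic-type cells. Single genes differed from these medians. Rgcc was lower by nearly as much in all 3 classes, with -2.31, -2.52 and -2.15 in the same order. Cd36 had -3.81, -0.74 and -1.53, so arterial-type cells were below the members. Gpihbp1 had -1.68, 0.21 and 0.07. Aplnr was lower in the mutant among arterial-type cells by as much (-1.86) and among all other ECs by less (-0.66). The member ratio was below that of the other ECs by 1.03 to 1.52 on the log2 scale, an approximate interval for counting error alone. The capillary median in members also depended on who was admitted: it was -1.04 in thinned cells and -0.30 when fewer than 2 arterial and fewer than 2 endocardial genes were allowed.

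**Figure D3:**
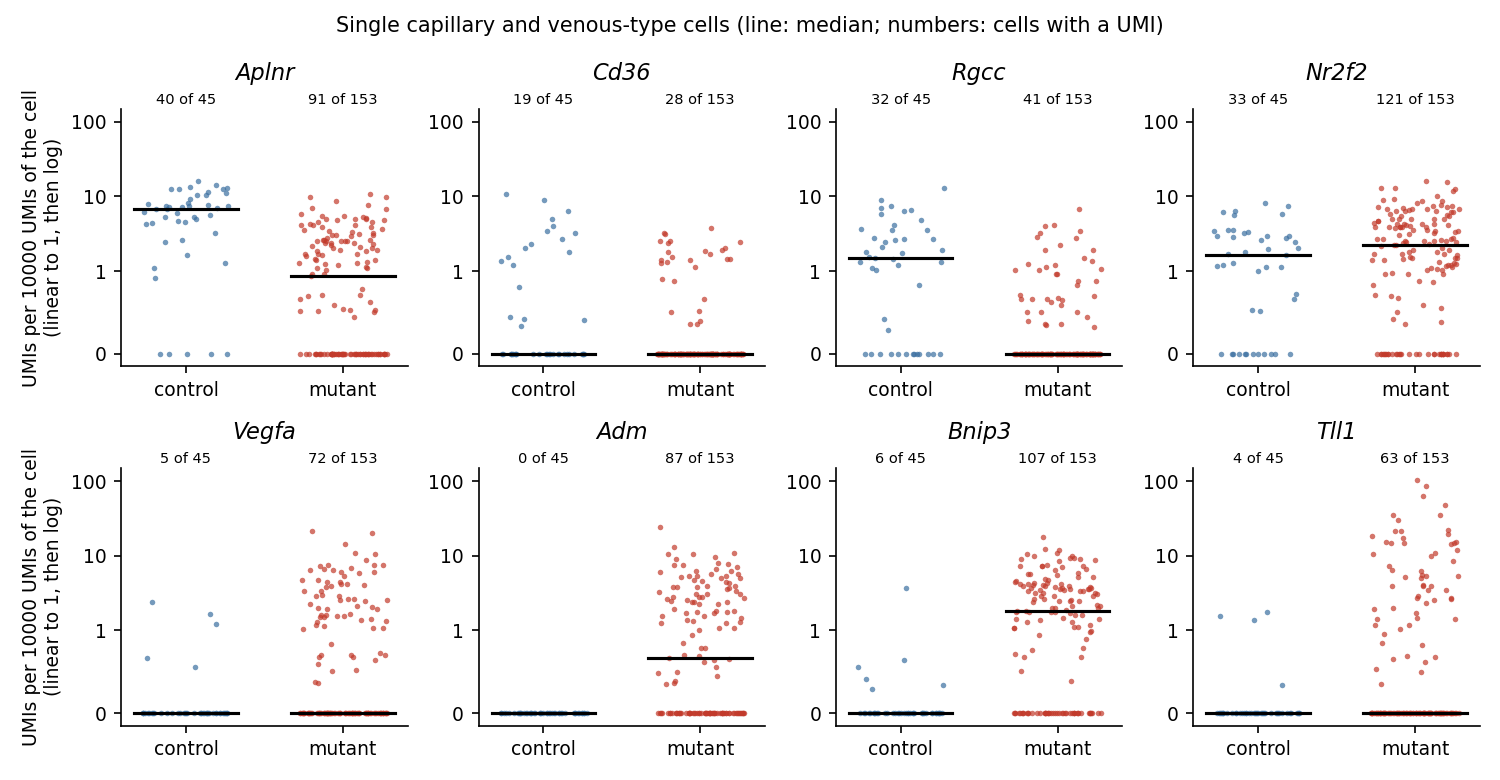
UMIs per 10000 UMIs of each member cell (axis linear to 1 and logarithmic above) for Aplnr, Cd36, Rgcc, Nr2f2, Vegfa, Adm, Bnip3 and Tll1, control in blue and mutant in red, with the median as a line and the cells with a UMI above each column. Aplnr and Rgcc medians are lower in the mutant (0.94 against 6.79 and 0 against 1.48), while Adm and Bnip3 have UMIs in 87 and 107 of 153 mutant members and in 0 and 6 of 45 control members.

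The broadest difference concerned HIF targets. Of 37 HIF targets outside glycolysis 31 passed 20 CPM, and 27 of these were over 2-fold higher in mutant members and 0 lower, with a median log2 ratio of 2.41; the share of all genes over 2-fold higher was 5.19%. The 20 CPM limit is a mean over both libraries, here and for the other lists. Some genes therefore passed through the mutant level alone, such as Adm at 0 and Slc2a3 at 4.04 CPM in control members. The list and the earlier results that led to it also come from these same libraries, so the count is a description. The median was 2.74 in arterial-type, 2.71 in endocardial-type and 2.55 in lymphatic-type cells, so the other classes had similar or larger medians. It was 2.52 among female-like cells of both libraries.

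The angiogenic peptides were among the clearest members of this group. Adrenomedullin (Adm, chr7:110627661-110629820), a peptide that acts on vessel growth and permeability, had 0 UMIs in 45 control members. It had 406 UMIs in 87 of 153 mutant members, or 218 CPM. With the control set to a floor of 3 UMIs, Adm was 53.9-fold higher, a log2 ratio of 5.75. The lower limit for counting error was a log2 ratio of 5.45. The same floor gave a log2 ratio of 3.67 when fewer than 2 arterial and fewer than 2 endocardial genes were allowed and 4.23 in thinned cells. Vegfa, the main ligand of Kdr, was at 10.8 CPM in control (8 UMIs in 5 cells) and 154 CPM in mutant (287 UMIs in 72 cells), a log2 ratio of 3.84. After thinning, Vegfa was detected in 6.98% of control and 38.5% of mutant members, against 23.8% and 36.3% of non-endothelial cells. Summed over the non-endothelial sorted cells it was at 51.2 and 117 CPM, so control members were below these cells and mutant members above them in level.

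Adm, by contrast, was detected in 49.6% of thinned mutant members and 8.55% of non-endothelial mutant cells. The 2 peptides overlapped in part: of 135 thinned mutant members 34 had both, 18 had Vegfa alone, 33 had Adm alone and 50 had neither. A mutant member could thus carry one without the other at this depth.

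The single genes Slc2a1, Slc2a3, Bnip3 and Slc16a3 were also higher in mutant members. Slc2a1, the endothelial glucose transporter, was at 133 CPM in control and 706 CPM in mutant members (log2 2.41), and its relative Slc2a3 at 4.04 CPM (3 UMIs) and 174 CPM (324 UMIs; 5.43). Bnip3 was at 18.8 CPM (14 UMIs, of which 64.3% lay in 1 cell) and 276 CPM (515 UMIs in 107 cells; 3.87, and from 2.35 to 7.40 over 14 alternative settings). The lactate exporter Slc16a3 was at 12.1 and 204 CPM (4.08). The promoter windows of Slc2a1, Bnip3 and Slc16a3 are printed above.

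Thinned mutant members with a Bnip3 UMI were 60.7% of cells and those with Slc16a3 53.3%, against 4.65% each in the control; 49 of 135 had both and 30 had neither. Non-endothelial cells had Bnip3 in 17.0% in control and 53.4% in mutant, and Slc16a3 in 9.53% and 41.7%, so the same genes were also more often detected in the mutant outside the endothelium. Also far higher were the protein-folding oxidase Ero1l (28.2 to 364 CPM, 3.69), the collagen-modifying enzyme Plod2 (3.42), the circadian repressor Bhlhe40 (9.42 to 126 CPM, 3.74) and the secreted inhibitor of lipoprotein lipase Angptl4 (3.48). Mif, a cytokine, was the list member with the most UMIs and went from 683 to 1921 CPM (1.49).

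Glycolytic enzymes moved with them. Of 16 enzymes 14 passed 20 CPM, 11 of them over 2-fold higher and 0 lower, against 5.19% and 4.69% of all genes, with a median log2 ratio of 1.34. Pgk1 went from 244 to 918 CPM (1.91), Ldha from 674 to 1817 CPM (1.43), Gapdh from 1146 to 2550.3 CPM (1.15) and hexokinase 2 (Hk2) from 8.07 to 53.1 CPM (2.72). Pfkm was the exception at 20.2 and 19.8 CPM (-0.03). The median was 1.64, 1.24 and 1.59 in arterial-type, endocardial-type and lymphatic-type cells.

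**Figure D4:**
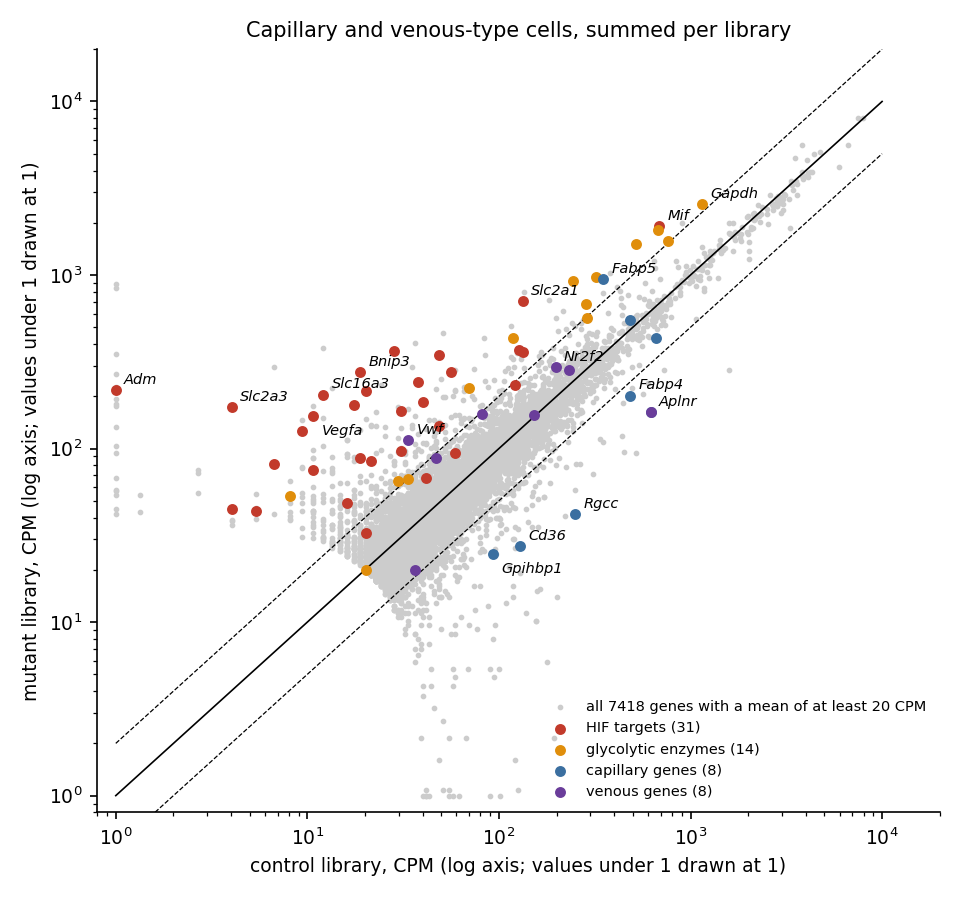
Summed level of each of 7418 genes in members of the control (x) and mutant (y) library in CPM on log axes, with values under 1 drawn at 1; the solid line is equality and the dashed lines are 2-fold. HIF targets (red) and glycolytic enzymes (orange) lie above the upper line in 27 of 31 and 11 of 14 cases, while Aplnr, Rgcc, Cd36, Gpihbp1 and Fabp4 among the capillary genes (blue) lie below the lower line.

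Genes of sprouting tip cells were higher in part. Of 15 tip genes 11 passed 20 CPM, with 5 over 2-fold higher, 0 lower and a median of 0.78, where 5.19% of all genes were higher and 4.69% lower. The 5 were Adm, the placental growth factor Pgf (2.69 to 72.4 CPM), the potassium channel subunit Kcne3 (49.8 to 253 CPM), the growth factor binding protein Igfbp3 (182 to 713 CPM) and the urokinase receptor Plaur (30.9 to 100.2 CPM). Apln, the ligand of Aplnr, was at 109 and 165 CPM (log2 0.60). Angpt2 and Esm1, both classical tip cell genes, were close to 0 in both libraries, with 3 and 8 and 4 and 15 UMIs, and Pdgfb was at 78.0 and 48.2 CPM. Adm and Pgf are also HIF or VEGF family genes, so the list did not stand apart from the preceding group.

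Among VEGF and angiopoietin ligands and receptors, 12 of 15 passed 20 CPM, with a median of 0.23. Over 2-fold higher were 3 (Vegfa, Pgf and the decoy receptor Flt1) and 1 was lower, against 5.19% and 4.69% of all genes. Flt1 was at 378 CPM in control and 1030 CPM in mutant members (1.45), and Kdr stayed near its control level. The lymphangiogenic ligand Vegfc ran the opposite way, with 59 control UMIs (79.4 CPM) against 30 in the mutant (16.1 CPM; log2 -2.30). The angiopoietin receptors Tek (309 and 293 CPM) and Tie1 (287 and 238 CPM) and the co-receptor Nrp1 (320.2 and 195 CPM) were not over 2-fold apart.

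Cells were admitted on 8 endothelial genes, so a loss of endothelial identity could not be seen in the members. Of 15 endothelial genes outside the rule, all of which passed 20 CPM, 2 were over 2-fold higher (Flt1 and the sphingosine receptor S1pr1), 1 was lower (Cd34, log2 -1.14) and the median was -0.19. Of 8 junction genes 0 were higher and 1 lower (Jam2), with a median of -0.23. For both lists, the shares over all genes were 5.19% higher and 4.69% lower. Vascular basement membrane genes had a median of 0.06 over 13 genes; fibronectin (Fn1) went from 83.4 to 436 CPM (2.39), while Col15a1, a basement membrane collagen, went from 451 to 95.4 CPM (-2.24), and Col4a1 was level at 1422 and 1482 CPM. In the pooled other ECs Fn1 was at 434 and 741 CPM.

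Genes close to PI3K itself showed less. The 11 measured parts of the PI3K, AKT and mTOR pathway had a median of 0.05, with 0 over 2-fold apart in either direction. Beside this count and those that follow, 5.19% of all genes were over 2-fold higher and 4.69% lower. Of 11 genes induced by FOXO factors, which AKT inhibits, 4 were higher and 1 was lower (Txnip, -1.25), with a median of 0.77. ATF4 and amino acid genes had a median of 0.45 with 2 of 12 over 2-fold higher, one of them Atf4 at 87.5 and 226 CPM. Of 11 BMP receptor, SMAD and Id genes 3 were higher (Id2, Bmp4 and Smad7), with a median of 0.17. Of 6 shear stress genes 1 was higher (Edn1) with a median of 0.10. The 4 measured barrier genes had Slc2a1 alone over 2-fold higher.

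Proliferation genes were not higher in the mutant members. DNA replication genes had a median of -0.33 over 16 genes with 0 higher and 2 lower (Ung and Mcm7). Mitosis genes had a median of -0.22 over 18 genes with 0 in either direction. For these counts and those of the class lists below, 5.19% of all genes were over 2-fold higher and 4.69% lower. The mitosis medians of the other classes were -1.12 in arterial-type, 0.88 in endocardial-type and -0.94 in lymphatic-type cells. Of 6 arterial genes outside the rule 1 was higher (Eln) with a median of 0.50, of 4 endocardial genes outside the rule 2 were higher (Adgrg6 and Gata6) with a median of 1.04, and of 4 lymphatic genes 0 were over 2-fold apart with a median of 0.11. The chemokine Cxcl12 was level at 21.5 and 21.4 CPM, its scavenger Ackr3 was at 43.1 and 19.8 CPM, and its receptor Cxcr4, which the rule counts, had 0 UMIs in both libraries.

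**Figure D5:**
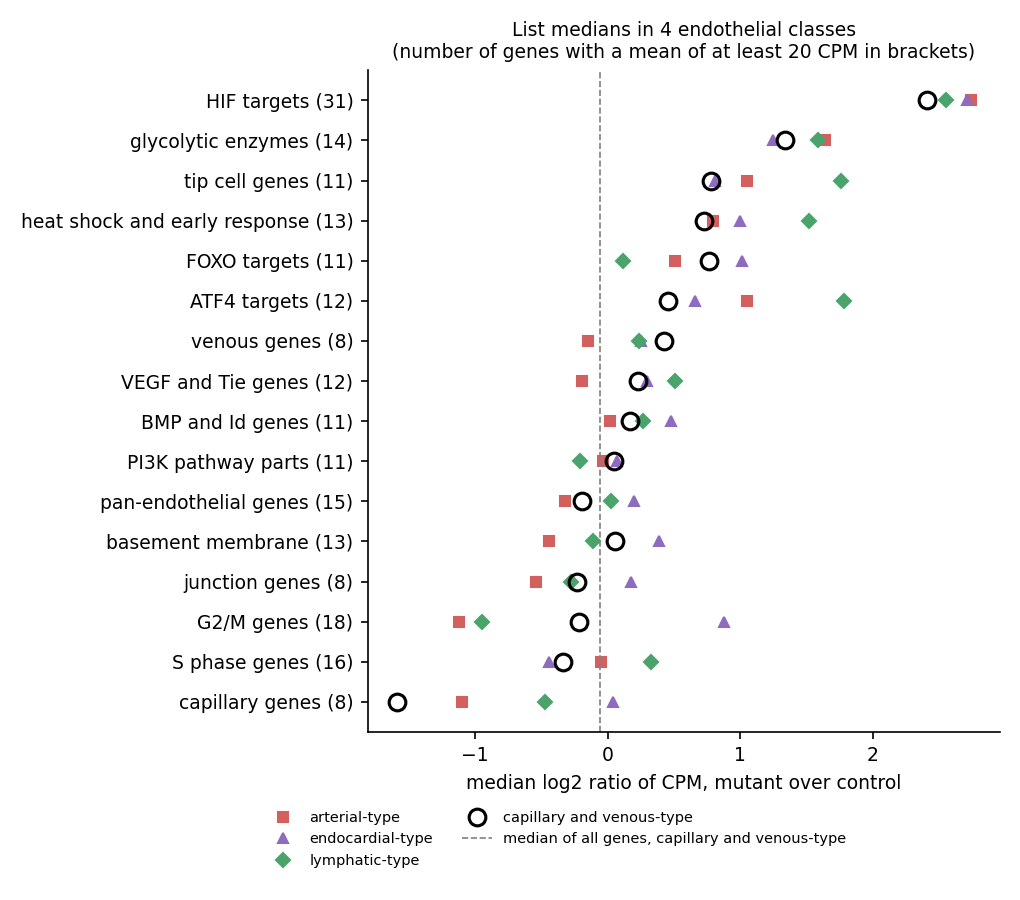
Median log2 ratio of CPM, mutant over control, for 16 gene lists in capillary and venous-type (open circles), arterial-type (squares), endocardial-type (triangles) and lymphatic-type cells (diamonds), with the number of genes in brackets and the all-gene median of the members (-0.05) as a dashed line. HIF targets are to the right in all 4 classes, from 2.41 to 2.74, and capillary genes are farthest to the left in the members at -1.59.

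Heat shock and early response genes, which also respond to cell handling, moved with the genotype as well, with a median of 0.73. Of 13 genes 5 were over 2-fold higher and 0 lower, against 5.19% and 4.69% of all genes. The chaperone Hspa1b went from 36.3 CPM, of which 92.6% lay in 1 cell, to 407 CPM, and Hspa1a from 51.1 to 465 CPM. Fos (206 and 238 CPM), Egr1 (124 and 130 CPM) and Ier2 (262 and 246 CPM) were nearly level, but 12 of the 13 genes were higher at any fold. Hspa1b and Hspa1a were also higher in the mutant outside the members. Their log2 ratios were 4.94 and 4.64 in other ECs and 3.47 and 3.09 in non-endothelial cells, against 3.49 and 3.19 in members. The part of handling in these values was not tested.

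Markers of other cell types moved with the genotype in the members too. The 4 hepatoblast genes (Afp, Alb, Apoa1, Ttr) summed to 0 CPM in control and 2136 CPM in mutant members, with Afp holding the most UMIs. Over 2-fold higher were 4 of 4, where 5.19% of all genes were, a share that also applies to the muscle markers below. Of the mutant UMIs, 1626 of 1653 for Afp and 1562 of 1575 for Alb lay in just 6 cells, which had 569 to 805 such UMIs each against 3 in the next member. These 6 had a median of 15908 UMIs and of 6 of the 8 endothelial genes. The difference between libraries was not particular to the members. Afp was at 0.37 CPM in control and 317 CPM in mutant other ECs, and at 0.17 and 704 CPM in non-endothelial cells. After thinning, it was detected in 0.08% of control and 8.24% of mutant non-endothelial cells. The 7 muscle markers summed to 105 and 433 CPM, with 3 of 3 measured genes over 2-fold higher, Actc1 holding the most (59.2 and 282 CPM) and Myod1 at 2 and 36 UMIs.

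The 6 mural cell markers summed to 22.9 and 174 CPM, nearly all of it Acta2 (12.1 and 150 CPM), while Rgs5 had 1 UMI in each library and Cspg4 had 0 and 2. Erythroid markers summed to 28.3 and 68.6 CPM, cardiomyocyte markers to 10.8 and 46.6, megakaryocyte markers to 9.42 and 45.6, mesothelium markers to 2.69 and 22.5, and neural crest markers to 4.04 and 8.58 CPM. Mesenchyme (194 and 169 CPM), neuron (101 and 118), epithelium (36.3 and 47.2) and myeloid markers (26.9 and 19.3) were nearer to level. In all, 9 control and 30 mutant members had at least 3 genes of such a list. Without them the HIF median was 3.17 and the glycolysis median 1.60. Members with fewer than 3 such genes stayed in, and their part in these values was not tested.

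The largest single-gene differences mostly followed these few cells. By log2 ratio among genes with 100 CPM in either library, the 12 genes farthest above control were Afp, Alb, Apoa2, Nts, Apoa1, Adm, Rbp4, Ttr, Tll1, Serpina6, Slc2a3 and Apoc2. Of these, 8 are liver products. The 12 genes farthest below control were Nwd2, Hpse2, Ncam2, Grm7, Tmeff2, Nckap5, Rbfox1, Ctnna2, Cntnap2, Lsamp, Nkain2 and Robo2, most of them genes of neurons. For 10 of the 12 over 50% of the control UMIs came from 1 cell, and 1028 of 1144 control UMIs of these 10 genes (89.9%) lay in the same cell, which also had all 8 endothelial genes. It was the top cell of 9 of the 10, all but Hpse2, so the ratios of those 9 mostly describe 1 control cell. With that cell and the 6 mutant cells left out, 413 genes were over 2-fold higher and 296 lower, and the HIF and capillary medians were 2.44 and -1.53.

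The same rule without members that held 3 or more genes of another list (36 control and 123 mutant cells left) named other genes. The 12 farthest above control were then Bnip3 (7.40), Hspa1b (6.94), Hspa1a (6.16), Nts, the adhesion protein Kirrel3 (5.85), Tll1 (5.63), Adm, Slc2a3, the scaffold protein Grip1 (4.82), Vegfa (4.62), Slc16a3 (4.26) and Ero1l (3.96), and 6 of them are HIF targets of the list. The order is uncertain at its top, because Bnip3 had 1 control UMI in these cells (interval 4.91 to 12.71) and Hspa1b 2, while genes at 0 took the floor of 3; over all members Bnip3 had 3.87. Nts, the gut and brain peptide neurotensin, had 0 UMIs in the control and 459 in 57 of the 123 mutant cells. After thinning, Nts was detected in 39.3% of the 135 full-depth mutant members described above, against 1.57% of non-endothelial mutant cells. This set was not limited to the 123 cells, and 31 of the 135 had both Nts and Adm. Of the Nts UMIs of all mutant members 23.2% lay in 1 cell, and of those of Kirrel3 among the 123 cells 39.5% did.

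The 12 genes farthest below control in these cells were Nckap5 (-4.08), Slc35f1 (-3.89), Ly6e (-3.73), the homeobox gene Meis2 (-2.92), the transcription factor Dach1 (-2.79), Samd5 (-2.51), Rgcc (-2.45), Dynlt1b (-2.43), the protocadherin Pcdh17 (-2.42), Col15a1 (-2.38), Cd36 (-2.26) and the calcium channel subunit Cacna2d1 (-2.24). Dach1, known for its part in coronary artery growth, was at 519 CPM in all control members and 94.3 CPM in mutant members. Each of these 12 genes was also lower in the mutant in the pooled other ECs. Over all members and in other ECs, the log2 ratios were -2.24 and -2.23 for Col15a1 and -2.11 and -2.11 for Pcdh17. They were -2.46 and -2.27 for Dach1 and -2.44 and -2.00 for Dynlt1b. The gap was wider for others, such as Nckap5 (-3.94 and -1.48) and Samd5 (-1.97 and -0.48). Ly6e was detected in 20 of 36 control and 12 of 123 mutant cells, Dynlt1b in 30 and 37, and Col15a1 in 32 and 48. Unlike the genes named from all members, none of these 12 had over 50% of its control UMIs in 1 cell. ACGTG or CACGT stood in the promoters of 0 of the 10 with an entry and in 3 of 9 of the genes above control, but for the genes named from all members the counts were 5 of 12 below and 2 of 9 above control, against 18.5% of all genes, so the named genes showed no steady pattern.

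The libraries also differed in sex. Among control members 36 were female-like by Xist and Y-linked transcripts and 9 had neither; among mutant members 42 were female-like, 72 male-like, 17 had both and 22 neither. Sex and genotype are thus partly confounded in the members, and values within female-like cells are given with the alternative settings. The 2 libraries shared 28 cell barcodes, 1 of them a member.

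The genes whose genotype ratio differed most between members and the pooled other ECs did not all set members apart from each class. The smooth muscle actin Acta2 had a log2 ratio of 3.63 in members (49 mutant cells), -0.17 in other ECs and -0.03 in endocardial-type cells. Actc1 had 2.25 in members (94 mutant cells) and -0.66 in other ECs, and Igfbp5, a growth factor binding protein, had 2.65 (71 mutant cells) and -0.39. Endocardial-type cells were near the members for both, with 1.85 for Actc1 and 2.43 for Igfbp5 (separately estimated difference 0.29, approximate interval -1.04 to 1.61).

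Crabp1, a retinoic acid binding protein, had 3.95 and 0.72, but 66.5% of its UMIs in mutant members lay in 1 cell. Nts was at 0 and 270.1 CPM in members and at 40.5 and 372 CPM in other ECs. On the lower side, Hpse2 and Tmeff2 each had most of their control UMIs in 1 cell (84.9% and 95.5%). Nckap5 had -3.94 in members, -1.48 in other ECs and -3.54 in endocardial-type cells. Serpine2, a protease inhibitor, had -2.43 in members, -0.47 in other ECs and -1.68 in endocardial-type cells (separately estimated difference -0.72, approximate interval -1.49 to 0.05). The netrin receptor Unc5c had -2.18 and -0.30, with its control UMIs in 5 members and 42.2% of them in 1.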

How the data were processed

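Each of 2 libraries, control and mutant, held eYFP-sorted cells of 3 pooled embryos. The authors deposited filtered matrices of UMI counts per gene and cell, made with Cell Ranger 7.1.0 per the labels on GRCm38; the counts were not normalized. No cell annotation was used. Cells outside the gene and mitochondrial limits were left out; no doublet was removed, since Scrublet called 0 and 1 cells, which is too few to be a working call. UMIs were summed over cells per library and class and divided by the total to give CPM. Intervals for single values were exact: Poisson for CPM, Clopper-Pearson for shares, and conditional binomial for log2 ratios. Log2 ratios took a floor of 3 UMIs for a gene at 0. A difference between log2 ratios was estimated separately, with a symmetric approximate interval. It can therefore depart slightly from the difference of the printed ratios. With 1 library per genotype no test was run, and over 2-fold is a description. Genes were named by a rule. It took the 12 largest ratios in each direction with 100 CPM in either library and an interval beyond 1.5-fold. For the difference between classes it took 6 genes in the same way. The 8 genes in each direction against other ECs were ranked by the less extreme ratio of the libraries. Their intervals excluded equality in both libraries but did not all lie beyond 1.5-fold. One gene named by the rule is not reported here. The members and gene lists were chosen with earlier results of these data known. Calculations used scipy 1.17.1, numpy 2.4.6, scanpy 1.11.5 and pandas 2.3.3 under Python 3.11.15, matplotlib 3.10.9 for plots and, for TMM factors, edgeR 4.0.16 in R 4.3.3, and were tested on simulated data. In all, 14 alternatives were planned and 2 were added after seeing the data.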

Additional observations from a re-analysis of the deposited data

Results flagged for a closer look

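Some barcodes that the cell filter removed met the endothelial rule; the limit for a count of 0 given beside each share is a low bar that a few barcodes would pass. In the control library 1.74% of removed barcodes (30 of 1722; Clopper-Pearson interval 1.18 to 2.48%) met the endothelial rule, above the 0.174% that a count of 0 would allow, and 25 of them also met the member rule. In the mutant library 7.07% (132 of 1868; 5.95 to 8.32%) did, above a limit of 0.161%, and 95 met the member rule. These barcodes were shallow, with medians of 2435.5 and 2722 UMIs, and most met the member rule, which asks that genes be absent.

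Ratios of opposite sign in members and in other ECs were found for Nnat and Ptn, and the differences were not tested. Nnat had a log2 ratio, mutant over control, of -2.49 in members and 1.20 in other ECs; 97.2% of its control UMIs in members lay in 1 cell. Ptn, a heparin-binding growth factor, had 2.55 in members and -0.85 in other ECs; 57.6% of its mutant UMIs in members lay in 1 cell.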

How the results depend on the processing

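The HIF median kept its direction under 16 alternatives, from 2.33 to 3.17, and so did the medians of glycolytic (1.24 to 1.60), venous (0.24 to 0.60) and capillary genes (-1.68 to -0.30). With fewer than 2 arterial and fewer than 2 endocardial genes allowed, members were 11.1% of control and 5.82% of mutant ECs, 662 genes were over 2-fold higher and 756 lower, the capillary median was -0.30 and Kdr turned to -0.036; only 17 control and 43 mutant cells were left. In cells thinned to 5000 UMIs the shares were 58.2% and 58.5%, the capillary median was -1.04 and Kdr was -0.012. With at least 1000 genes and no upper limit members were 25.7% of mutant ECs. Without Tll1 in the rule, an alternative added after seeing the data, they were 34.2% and the HIF median was 2.76. Female-like cells gave 667 genes higher and 514 lower, with medians of 2.52 for HIF, 1.33 for glycolytic, 0.60 for venous and -1.59 for capillary genes, and male-like mutant cells set against every control member an HIF median of 2.93. Without members carrying other cell type markers the HIF median was 3.17 and the glycolysis median 1.60. Minimum levels of 5 and 100 CPM gave 903 and 100 genes higher, 983 and 40 lower, and at 100 CPM a capillary median of -0.93. The causes of these shifts were not tested. No paired analysis was possible because each genotype has 1 library. The 45 control members and their depth limit every ratio of a gene with few control UMIs.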

Other observations

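The cell that held most control UMIs of the neuronal genes named above had 15682 UMIs in all, 20 of them from the 8 endothelial genes and 0 from Nnat, whose control UMIs lay mostly in another member. None of the 6 mutant members with hepatoblast genes was female-like.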
